A study of Mus musculus with 6 samples.

Results

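Calcium buffers and sensors of neurons were followed here as 8 named genes: the buffers Calb1 and Pvalb, the calmodulin gene Calm3, and 5 genes of the neuronal calcium sensor family, Ncald, Ncs1, Vsnl1, Hpca and Hpcal1. They were chosen by symbol, with earlier results of these data known, and counts of all listed transcripts of a symbol were added up. A row was present for 6 of the 8 genes, out of 33676 genes in the table. For Ncs1 and Hpcal1, 0 of the 2 annotated transcripts each were listed, and both genes are not analysed here.

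RNA was sequenced from the modiolus, the central pillar of the cochlea in which the spiral ganglion neurons (SGNs) lie, in 6 libraries of male C57BL/6 mice aged 8 weeks at injection. The 3 degenerated libraries came from mice given kanamycin at 1 g/kg and furosemide at 0.4 g/kg, a combination that kills cochlear hair cells, and the 3 control libraries from mice given saline. For the degenerated group, tissue was taken on day 30. The comparison asks how the RNA of the modiolus differs once SGNs degenerate after hair cell loss, and the sources used here do not say whether each library is a separate animal, so p-values measure only the spread between these libraries.

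Neurons keep free calcium low and brief. EF-hand buffers such as parvalbumin and calbindin bind calcium and shape how long a signal lasts, while calmodulin and the neuronal calcium sensors change shape on binding calcium and pass the signal to enzymes, channels and membranes. Parvalbumin is known as a marker of the type I SGNs that carry most auditory nerve fibres, and it is also abundant in fast skeletal muscle and present in hair cells.

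Among the members, the data showed lower Pvalb and Vsnl1 RNA in the degenerated libraries, with Vsnl1 short of the threshold, and no call for Calm3, Ncald and Hpca. A gene was called if, in edgeR's quasi-likelihood test over 14118 genes, its unadjusted p was under 0.01 and its log2 fold change beyond 0.2 in either direction. Of the 5 members that passed the filter on low counts, 1 was called lower and 0 higher, beside 0.715% of all tested genes called lower and 2.01% called higher. Because the members were chosen with earlier results known, these shares are a description and not a test. At an adjusted p under 0.05, 0 members passed in edgeR's quasi-likelihood test, where 0 of all 14118 genes passed and the smallest adjusted p was 0.0719. With DESeq2 1 member passed, and the share of all genes that passed there is not given here. In the quasi-likelihood test 2 members had an unadjusted p under 0.05, beside 1367 of all 14118 tested genes. For 2 of the 5 tested members, both lower, the ranges of the 2 groups were separate, as they were for 17.7% of all tested genes (7.37% lower and 10.3% higher). The 5 members had a median log2 fold change of -0.29, beside -0.00344 over all genes.

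The libraries held 12480876 to 15549319 counts over the transcripts listed, and values are given as CPM, counts per 1000000 counts of a library after TMM scaling. All 22 genes of a neuron marker list were measured in this tissue, Tubb3 at 409 to 524 CPM, Snap25 at 1500 to 3324 CPM and Nefl at 962 to 2210 CPM. Slc17a7, a vesicular glutamate transporter gene, reached only 1.64 to 7.91 CPM, but 1 of its 5 annotated transcripts was listed, so its level may be undercounted. Hair cell genes were also present, with the outer hair cell motor gene Slc26a5 at 7.79 to 16 CPM in controls and 0.137 to 0.493 CPM after treatment, and Otof at 80.2 to 313 CPM over all libraries. The labels name the SGN as the cell type. Markers of Schwann cells and glia (5022 to 9898 CPM in sum) and of blood and marrow (5303 to 54170 CPM in sum) were measured as well, so the libraries hold RNA of other cells too. Other marker lists also moved with the groups: the bone sum was 529 to 737 CPM in control and 154 to 285 CPM in degenerated libraries, with 2 of 5 tested genes (Bglap and Bglap2) called lower, and the sum for supporting and other epithelial cells was 2266 to 2534 CPM in control and 3785 to 4489 CPM in degenerated libraries, with 1 of 8 tested genes (Ceacam16) called higher. Macrophage genes summed to 545 to 663 CPM in control and 625 to 849 CPM in degenerated libraries, which overlapped. Of 7 tested genes, 2 (C1qb and C1qc) were called higher, beside 2.01% of all genes. The log2 fold change was positive for 4 of the 7 and negative for 3 (Cd68, Itgam and Ptprc), with a median of 0.19. The part of these cells in the results was not tested. In such bulk tissue, fewer cells of a type and less RNA per cell cannot be told apart. Over the 500 most variable genes, control 1 and degenerated 1 and 2 lay on one side of the first principal component (30.6% of the variance) and the other 3 libraries on the other, and the blood and marrow sum was 5303 to 7795 CPM on the first side and 21170 to 54170 CPM on the second. With a term for this split, chosen after the data were seen, Pvalb had a log2 fold change of -0.97 (unadjusted p = 0.00176, adjusted p = 0.28 in edgeR's quasi-likelihood test) and Vsnl1 one of -0.67 (unadjusted p = 0.00181, adjusted p = 0.28), and both were called lower.

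The promoters of Pvalb and Vsnl1 are shown because Pvalb has 2 separate starts, between which its counts were divided in different ways, and because Vsnl1 is the other tested member whose groups stood apart. They are RefSeq sequences of GRCm38.p6, read 5′ to 3′ on the gene's strand up to the last base before the start of transcription: chr15:78206401-78206650 for Pvalb-202, chr15:78204238-78204487 for Pvalb-201 and chr12:11436614-11436828 for Vsnl1-201, all on the minus strand. Capitals mark matches, on either strand, to 5 motifs. These were an E-box with the letters CANNTG and a GC box with the letters GGGCGG. The TATA box was searched as TATAAA and a cyclic AMP response element as TGACGTCA. A MEF2-type core was searched only as CTANNNNTAG, and no match of 2 motifs shared a base.
Pvalb-202: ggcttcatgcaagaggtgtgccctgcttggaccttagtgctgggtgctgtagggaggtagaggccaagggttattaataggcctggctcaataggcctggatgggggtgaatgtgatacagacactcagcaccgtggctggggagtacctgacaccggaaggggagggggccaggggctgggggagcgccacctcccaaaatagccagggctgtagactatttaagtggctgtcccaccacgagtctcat
Pvalb-201: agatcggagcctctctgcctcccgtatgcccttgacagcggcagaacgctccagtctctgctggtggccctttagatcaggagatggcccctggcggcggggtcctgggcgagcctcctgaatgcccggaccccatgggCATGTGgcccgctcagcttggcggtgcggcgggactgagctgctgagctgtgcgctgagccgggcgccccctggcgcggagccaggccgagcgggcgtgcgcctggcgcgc
Vsnl1-201: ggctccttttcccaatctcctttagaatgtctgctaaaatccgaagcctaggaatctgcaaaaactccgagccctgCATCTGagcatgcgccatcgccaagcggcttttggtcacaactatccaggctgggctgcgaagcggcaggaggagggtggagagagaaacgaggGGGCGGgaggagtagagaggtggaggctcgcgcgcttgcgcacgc
The 2 starts of Pvalb lie 2163 bases apart, and their promoters differ in composition. The downstream one, of Pvalb-201, had 71.6% G and C and 23 CpG dinucleotides in 250 bases, and the upstream one, of Pvalb-202, had 58.4% and 4, beside a median of 52.4% G and C over all 32851 promoters of that length. An E-box lay 111 to 106 bases before the start of Pvalb-201, and 66.2% of all promoters of 250 bases held one. None of the 5 motifs as written was found in the window of Pvalb-202, which says only that these letters do not occur there. The stretch ttattaatag in that window differs from the MEF2-type letters in its first base alone and was not counted. Other spellings of a motif were not searched. In the 215 bases before Vsnl1-201, an E-box lay 139 to 134 and a GC box 45 to 40 bases before the start, which 61.4% and 27.7% of all promoters of that length held. In windows of 215 and 250 bases, the TATA box was found in 9.75% and 12.4% of promoters, the cyclic AMP response element in 1.1% and 1.55%, and the MEF2-type core in 2.8% and 3.2%. A match is a description of letters and not a binding site. Promoter sequences were found for 6 of the 8 members, and only those above are printed.

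**Figure D1:**
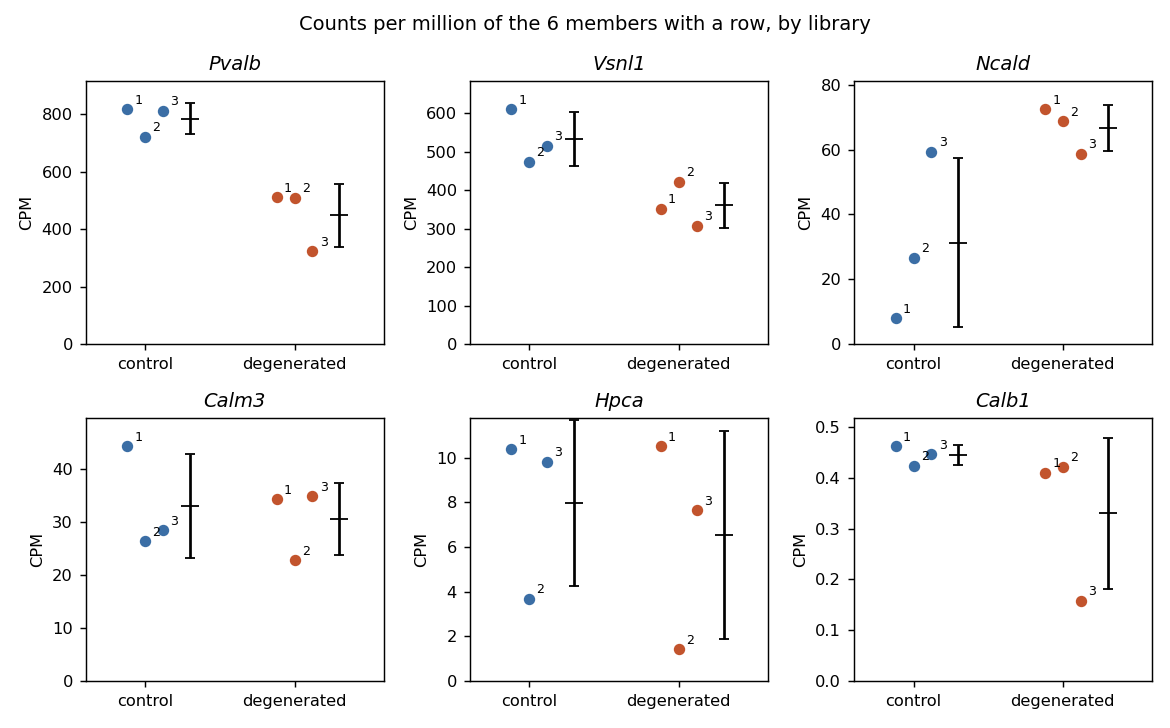
CPM of the 6 members with a row in each library, with points numbered by replicate and the mean ± SD of each group (n = 3) beside them. Pvalb and Vsnl1 lay lower in all degenerated libraries than in any control library, while Ncald, Calm3 and Hpca overlapped, and Calb1 lay below 0.5 CPM throughout.

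Pvalb (ENSMUSG00000005716, GRCm38 chr15:78191114-78206400, minus strand) encodes parvalbumin, a fast EF-hand calcium buffer. It measured 817, 722 and 812.5 CPM in the control libraries and 512, 509 and 323 CPM in the degenerated ones. Every degenerated library lay below every control library, and degenerated 3 lay lowest. The means were 784 ± 53.6 and 448 ± 108 CPM (SD, n = 3 each), a ratio of 0.571. Pvalb was called lower with a log2 fold change of -0.81 (SE 0.20, unadjusted p = 0.00633, adjusted p = 0.342 in edgeR's quasi-likelihood test), and with DESeq2 its adjusted p was 0.033. The call was lost with replicate number as a block (unadjusted p = 0.0143 in edgeR's test). It was also lost when control 1, control 2 or control 3 was left out (unadjusted p = 0.018, 0.0133 and 0.0175 in edgeR's test), while the log2 fold change stayed between -0.93 and -0.62 with each of the 6 libraries left out in turn. Cells other than neurons can add to this value. The summed level of 14 measured hair cell genes was 651 to 1044 CPM in controls and 372 to 721 CPM after treatment, which overlapped. Of the 12 hair cell genes tested, 10 had a negative and 2 a positive log2 fold change. The part of hair cells in the lower Pvalb was not tested.

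Calb1 (ENSMUSG00000028222, chr4:15881264-15908064, plus strand) encodes calbindin-D28k, a buffer with several EF-hands. Its coding transcript Calb1-201 is not analysed here, and the 2 listed transcripts, Calb1-202 and Calb1-203, both retain an intron. They held 7, 6 and 7 counts in the control libraries and 6, 6 and 2 counts in the degenerated ones. The libraries of both groups shared a count of 6, and their CPM just missed overlapping, at 0.424 to 0.463 against 0.158 to 0.423. The gene did not pass the filter, and the ratio of 14 to 20 pooled counts was 0.758 after normalization, with an exact 95% interval of 0.354 to 1.58 that covers counting error only. A difference was not detectable at this depth.

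Both Pvalb transcripts encode protein and were listed. Their sequences differ at the 5′ end, where Pvalb-202 starts at position 78206400 and Pvalb-201 at position 78204237 of chromosome 15, so that the promoters printed above belong to one each. Pvalb-202 measured 287, 261 and 572 CPM in control and 197, 201 and 69.8 CPM in degenerated libraries. The groups did not overlap, and the highest value, in control 3, and the lowest, in degenerated 3, stood well apart from the rest. Its log2 fold change was -1.26 (SE 0.51, unadjusted p = 0.0521, adjusted p = 0.663 in edgeR's quasi-likelihood test over 26065 transcripts). Pvalb-201 measured 557, 478 and 252.8 CPM in control and 312, 299.7 and 252.7 CPM in degenerated libraries. Control 3 was here at the level of the lowest degenerated library, so that the groups overlapped, and the log2 fold change was -0.57 (SE 0.30, unadjusted p = 0.108, adjusted p = 0.733).

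The 2 transcripts thus split the counts of the gene in another way in control 3. Pvalb-202 held 34%, 35.4% and 69.4% of the counts of Pvalb in control 1, 2 and 3, and 38.7%, 40.2% and 21.7% in degenerated 1, 2 and 3. Fast skeletal muscle genes moved with this library: the sum of the 17 measured of 20 genes of a muscle list was 714 CPM in control 3 and 88.1 to 144 CPM in the other 5 libraries. Its defining genes Acta1, Myh4 and Tnnt3 measured 54.7, 103 and 8.17 CPM in control 3, and at most 1.32, 0.474 and 0.237 CPM elsewhere, with Myh4 at 0 counts in control 1, control 2 and degenerated 2. The part of muscle RNA in the Pvalb counts was not tested. Without control 3, Pvalb-201 was called lower with a log2 fold change of -0.85 (unadjusted p = 0.00231, adjusted p = 0.427 in edgeR's quasi-likelihood test), Pvalb-202 had one of -0.81 (unadjusted p = 0.165, adjusted p = 0.882), and the gene as a whole one of -0.79. In a test of transcript usage, which asks whether transcripts of a gene differ in their change, neither Pvalb transcript passed (unadjusted p = 0.617 and 0.477, both adjusted p = 1.0 in edgeR's test), and 0.241% of the 18255 transcripts tested passed an adjusted p of 0.05.

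**Figure D2:**
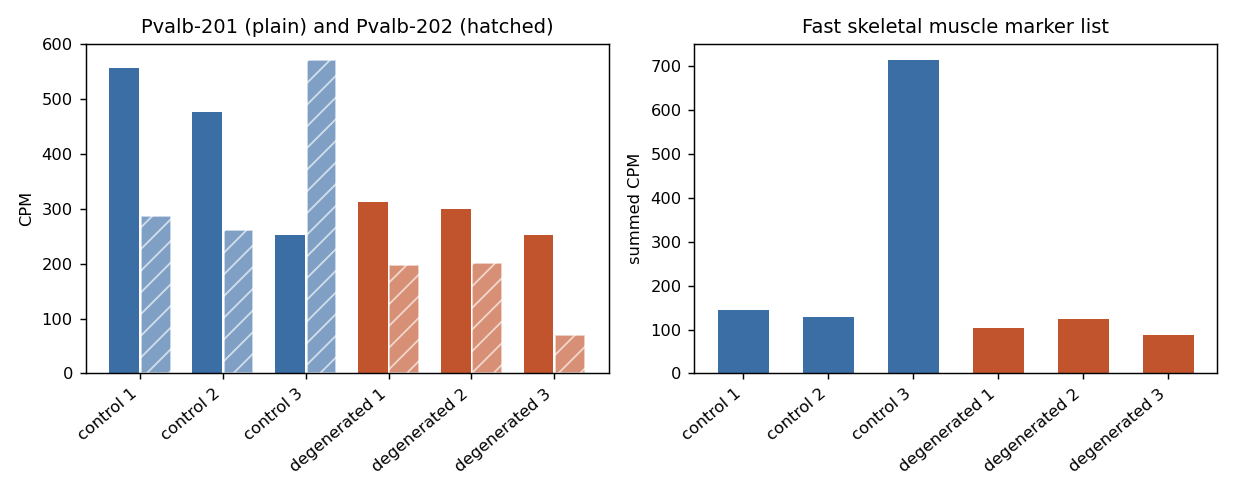
Left, CPM of Pvalb-201 (plain bars) and Pvalb-202 (hatched bars) in each library; right, summed CPM of the 17 measured fast skeletal muscle genes. Control 3 held the highest Pvalb-202 value (572 CPM) and the highest muscle sum (714 CPM), whereas Pvalb-201 was 253 CPM there, as in degenerated 3.

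Vsnl1 (ENSMUSG00000054459, chr12:11325242-11436613, minus strand) encodes visinin-like protein, a myristoylated sensor that moves to membranes when it binds calcium. It measured 611, 474 and 516 CPM in control and 352, 422 and 308 CPM in degenerated libraries. All degenerated libraries lay below all control libraries, with the gap narrowest between control 2 and degenerated 2. The means were 533.5 ± 69.9 and 360.5 ± 57.4 CPM (SD, n = 3 each), a ratio of 0.676. The log2 fold change of -0.57 (SE 0.16, unadjusted p = 0.0121, adjusted p = 0.385 in edgeR's quasi-likelihood test) missed the call. It passed with DESeq2 (unadjusted p = 0.00512, adjusted p = 0.114), with no filter on low counts (unadjusted p = 0.0078), and when degenerated 2 was left out (unadjusted p = 0.0052, log2 fold change -0.70).

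Nearly all counts of Vsnl1 fell on Vsnl1-201, which held 98.9% to 100% of them and starts at the promoter printed above. Transcript Vsnl1-201 measured 629, 483 and 524 CPM in control and 346, 414 and 308 CPM in degenerated libraries. The groups stayed apart, and this transcript was called lower with a log2 fold change of -0.61 (SE 0.16, unadjusted p = 0.00852, adjusted p = 0.543 in edgeR's quasi-likelihood test). The call was lost with edgeR's exact test (unadjusted p = 0.0631). In the quasi-likelihood test it was lost with upper-quartile normalization (0.0219) and with replicate number as a block (0.026). It was also lost when any library other than degenerated 2 was left out (unadjusted p = 0.0101 to 0.0355). Vsnl1-202 held 0 to 56 counts, and its log2 fold change of 0.59 had an SE of 1.71, so that a difference was not detectable. Of the 8 member transcripts tested, Vsnl1-201 was the 1 called lower and 0 were called higher, beside 0.652% and 1.14% of all transcripts tested. By adjusted p under 0.05, edgeR's quasi-likelihood test passed 0 of them and 0.0153% of all transcripts, and DESeq2 passed 0. An unadjusted p under 0.05 was found for 1 of the 8 in edgeR's test, beside 1968 of all 26065 transcripts tested. The groups did not overlap for 3 of these 8 transcripts, 2 of them lower and 1, Calm3-204, higher, beside 16.4% of all transcripts tested (7.24% lower and 9.13% higher).

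The neuron markers moved in the same direction as Pvalb and Vsnl1. Their sum was 15380, 11370 and 11590 CPM in control and 9145, 10870 and 7593 CPM in degenerated libraries, so that all degenerated libraries lay below all control libraries. Of the 22 genes, 15 had a negative and 7 a positive log2 fold change, with a median of -0.39, and 6 were lower and 1 (Scn1a, a sodium channel gene, 3.07 on the log2 scale) higher without overlap, beside 7.37% and 10.3% of all genes. Scn1a measured 1.40 to 8.41 CPM in control libraries and 83.7 CPM in degenerated 2, but only 9.37 CPM in degenerated 1, with degenerated 3 close to it. The size of its fold change thus rested mainly on degenerated 2, and its groups only just missed overlapping. Of the 22 markers, 0 were called in edgeR's quasi-likelihood test, 2 in its exact test and 1 by DESeq2. In the quasi-likelihood test, 6 had an unadjusted p under 0.05. Snap25 and Nefl, genes of synaptic release and of the axonal cytoskeleton, had log2 fold changes of -0.62 and -0.56, whereas Tubb3, a neuronal tubulin, had one of -0.04. The sum was carried by Nefl, Nefm, Nefh and Snap25, which made up 70.0% to 71.9% of it in control and 61.6% to 65.6% in degenerated libraries. The other 18 markers summed to 3297 to 4325 CPM in control and 2915 to 3744 CPM in degenerated libraries, which overlapped.

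Members were therefore also set against the neuron marker sum of the same library, a comparison chosen after the data were seen. An exact permutation test of 3 against 3 libraries, two-sided, cannot give a p below 0.1. Per 1000 CPM of neuron markers, Vsnl1 measured 39.7, 41.7 and 44.5 in control and 38.5, 38.8 and 40.6 in degenerated libraries. These values lay close together and overlapped, with a log2 difference of -0.10 (exact permutation p = 0.2). Pvalb measured 53.2, 63.5 and 70.1 in control and 56.0, 46.8 and 42.5 in degenerated libraries per 1000 CPM of neuron markers. Here degenerated 1 lay above control 1, and the log2 difference was -0.36 (exact permutation p = 0.2). The outcome depended on which markers were used. Against the sum of the other 18 markers, also chosen after the data were seen, Vsnl1 measured 139 to 156.5 per 1000 CPM in control and 104 to 113 in degenerated libraries, and Pvalb 189 to 246 and 111 to 151. Neither gene overlapped between groups on that scale, with log2 differences of -0.44 for Vsnl1 and -0.71 for Pvalb (exact permutation p = 0.1 each, the smallest possible).

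**Figure D3:**
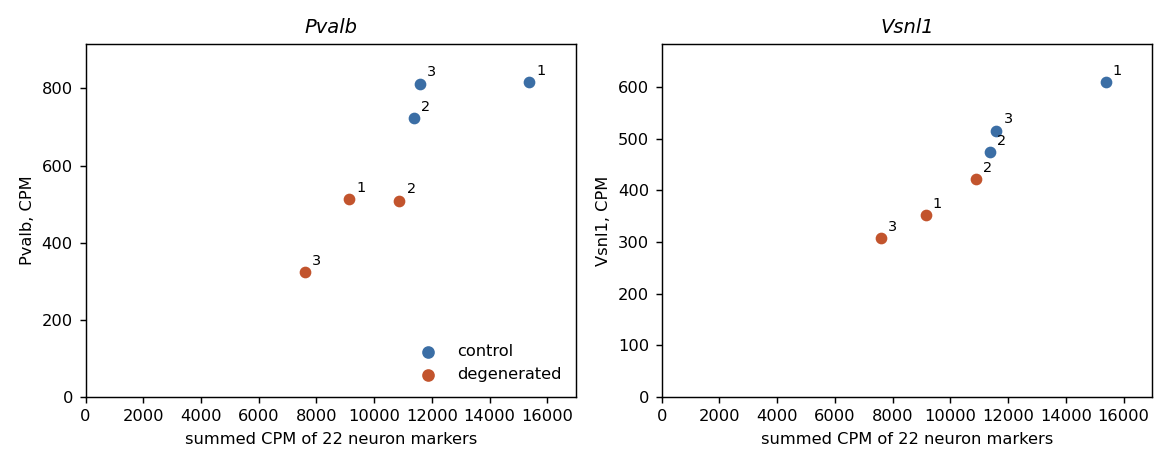
CPM of Pvalb (left) and Vsnl1 (right) against the summed CPM of the 22 neuron markers, 1 numbered point per library. The sum is mostly that of 3 neurofilament genes and Snap25, and Vsnl1 lay at 38.5 to 44.5 per 1000 CPM of it in all 6 libraries and Pvalb at 42.5 to 70.1, with degenerated 3 lowest and control 1 highest on every axis.

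Calm3 (ENSMUSG00000019370, chr7:16915379-16924114, minus strand) is one of the genes that encode the same calmodulin protein. Its listed transcripts measured 44.4, 26.5 and 28.5 CPM in control and 34.3, 22.8 and 34.9 CPM in degenerated libraries. The groups overlapped, with control 1 highest and degenerated 2 lowest. The log2 fold change was -0.11 (SE 0.29, unadjusted p = 0.717, adjusted p = 0.923 in edgeR's quasi-likelihood test), and its sign turned when control 1 or degenerated 2 was left out (0.15 and 0.058) and per neuron marker sum (0.38, exact permutation p = 0.4, and 0.034 without its 4 highest genes, exact permutation p = 1.0). The longer coding transcript Calm3-201 is not analysed here, and 2 of 4 annotated transcripts were listed. Calm3-203, a short coding transcript, held 72.8% to 88.4% of the counts, and Calm3-204, a transcript annotated as noncoding, the rest. Calm3-204 measured 5.33, 5.64 and 4.15 CPM in control and 6.47, 6.10 and 6.87 CPM in degenerated libraries. Although its groups did not overlap, its log2 fold change of 0.36 (SE 0.31, unadjusted p = 0.283, adjusted p = 0.843 in edgeR's quasi-likelihood test) was not called.

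Ncald (ENSMUSG00000051359, chr15:37366175-37792570, minus strand) encodes neurocalcin delta, a sensor of the visinin-like branch. It measured 7.94, 26.7 and 59.3 CPM in control and 72.4, 68.7 and 58.7 CPM in degenerated libraries. The degenerated libraries were alike, while the control libraries spread over a wide range and control 3 overlapped them. The log2 fold change was 1.09 (SE 0.66, unadjusted p = 0.152, adjusted p = 0.653 in edgeR's quasi-likelihood test), and it depended on single control libraries, at 0.63 without control 1 and 1.93 without control 3 (unadjusted p = 0.146 and 0.0197). With the term for the library split it was 1.78 (unadjusted p = 0.0836), and per neuron marker sum 1.99, or 1.65 against the other 18 markers, without overlap (exact permutation p = 0.1 each). Ncald-203 held 98.1% to 99.5% of the counts of the 5 listed of 12 annotated transcripts. Exons of Ncald overlap those of Gm49397 on the same strand and Gm28221 on the other, and the library kit named in the labels does not mark strand, so that reads of these genes may not be told apart.

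Hpca (ENSMUSG00000028785, chr4:129111570-129122036, minus strand) encodes hippocalcin, a sensor best known from hippocampal neurons. It measured 10.4, 3.68 and 9.83 CPM in control and 10.5, 1.41 and 7.66 CPM in degenerated libraries. The groups overlapped, with control 2 and degenerated 2 lowest, and the log2 fold change was -0.29 (SE 0.77, unadjusted p = 0.724, adjusted p = 0.926 in edgeR's quasi-likelihood test), which turned to 0.18 without degenerated 2. Control 1 differed from the other libraries in the transcripts counted: Hpca-209 held 79.0% and Hpca-202 13.4% of its 157 counts, whereas Hpca-202 held 100% in each of the other 5 libraries. Exons of Hpca overlap the antisense gene Tmem54.

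Levels were compared between genes per kilobase of the listed transcripts. In control libraries Pvalb stood highest at 812 ± 57.3 CPM per kb, followed by Vsnl1 at 280.4 ± 36.7, Calm3 at 67.7 ± 20.1, Ncald at 9.80 ± 7.99, Hpca at 5.0 ± 2.46 and Calb1 at 0.623 ± 0.026 (SD, n = 3 each). Neighbours in this order did not overlap between control libraries, except Ncald and Hpca. In the degenerated libraries the order was the same, with Pvalb at 462 ± 113, Vsnl1 at 189.5 ± 30.2, Calm3 at 62.8 ± 13.9, Ncald at 20.4 ± 2.19, Hpca at 3.92 ± 2.80 and Calb1 at 0.459 ± 0.207 CPM per kb, and no neighbours overlapped. These levels leave out the transcripts not analysed here, among them coding ones of Calb1 and Calm3.

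Genes with the most similar profile over the 6 libraries were sought among 8424 genes with a mean of at least 10 CPM, by the root mean square difference of log2(CPM + 1) after centring. Vsnl1 was nearest to Insyn1, which encodes an inhibitory synaptic factor, and Rufy3, which encodes a neuronal adaptor of axon growth, with differences of 0.055 and 0.056. Insyn1 measured 206, 180.5 and 189 CPM in control and 125, 147 and 111 CPM in degenerated libraries. Pvalb was nearest to Tpbgl and Tceal6 at 0.095 and 0.098, and Tpbgl measured 57.9, 59.4 and 67.2 CPM in control and 36.1, 37.8 and 22.3 CPM in degenerated libraries. The nearest genes were Anpep and Mdh2 for Calm3 (0.105 and 0.106), Gpatch2 and Fgf1 for Ncald (0.278 and 0.28), and Ttc33 and Kyat3 for Hpca (0.217 and 0.254). Fgf1, a growth factor gene, had the low control 1 seen in Ncald, with 70.8 CPM there and 341 to 615 CPM in the other libraries. All these profiles share the same 6 libraries.

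Beyond the members, 95 other genes of calcium buffering, sensing and transport were listed, of which 79 had a row and 66 were tested. Of these, 4 were called lower and 2 higher, beside 0.715% and 2.01% of all genes. At an adjusted p under 0.05, 0 of them and 0 of all 14118 tested genes passed in edgeR's quasi-likelihood test. An unadjusted p under 0.05 was found for 13, beside 1367 of all tested genes. DESeq2 and edgeR's exact test called 9 and 8, and the shares of all genes called there are not given here. For the genes called in the quasi-likelihood test, DESeq2 gave adjusted p-values of 1.85e-25 (Ocm), 6.68e-06 (Cib2), 0.000244 (Gap43), 0.00205 (Nos1), 0.0341 (Calb2) and 0.0566 (Ppp3cb). The median log2 fold change of the 66 was -0.15, and 10 were lower and 5 higher without overlap, beside 7.37% and 10.3% of all tested genes.

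Among the other EF-hand buffers, 2 of 8 tested genes were called lower. Calb2, which encodes calretinin, the nearest relative of calbindin, measured 2317, 2250 and 3646 CPM in control and 1093, 1745 and 1072 CPM in degenerated libraries. All degenerated libraries lay below all control libraries, with control 3 highest, and the log2 fold change was -1.07 (SE 0.29, unadjusted p = 0.00964, adjusted p = 0.362 in edgeR's quasi-likelihood test). The call was lost when any library other than degenerated 2 was left out (unadjusted p = 0.0126 to 0.035 in edgeR's test). It was also lost with the term for the library split (0.0249), with replicate number as a block (0.0273) and with a mean count of at least 10 as the filter (0.0102). Ocm, which encodes oncomodulin, the parvalbumin of outer hair cells, fell from 150.5, 140 and 173 CPM to 3.90, 3.38 and 0.789 CPM. It had by far the lowest fold change of the calcium genes, at -5.83 on the log2 scale (SE 0.61, unadjusted p = 7.29e-05, adjusted p = 0.0802 in edgeR's quasi-likelihood test). Of 12 tested genes of the hair cell list, 3 were called lower as well.

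Calm2, another calmodulin gene, is not analysed here. Among 18 tested calcium sensor genes, Cib2 alone was called. Cib2, which encodes a calcium and integrin binding protein of the hair cell transduction complex and stands on the hair cell list as well, fell from 187, 151 and 181.5 CPM to 95.3, 99.2 and 86.3 CPM, with a log2 fold change of -0.89 (SE 0.13, unadjusted p = 0.000432, adjusted p = 0.178 in edgeR's quasi-likelihood test). Its call was kept with each library left out in turn. Hpcal4, the sensor closest to Hpca and Vsnl1 on the list, measured 7.08, 4.10 and 8.68 CPM in control and 8.48, 6.97 and 3.79 CPM in degenerated libraries. Its groups overlapped, and its log2 fold change of -0.05 (SE 0.45) turned sign without control 3 (0.19) or degenerated 3 (0.22).

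Calmodulin targets and binders went both ways. Of 20 tested, Ppp3cb, a catalytic subunit of calcineurin, was called lower, at 223, 195 and 246 CPM in control and 173, 132 and 134 CPM in degenerated libraries (log2 fold change -0.60, SE 0.16, unadjusted p = 0.00812, adjusted p = 0.359 in edgeR's quasi-likelihood test). Its groups did not overlap, but the call was lost without control 1 or 3 or without degenerated 2 or 3 (unadjusted p = 0.0193 to 0.0309). It was also lost with the term for the library split (0.0129), with replicate number as a block (0.0135) and with edgeR's exact test (0.0138). Gap43, the growth-associated calmodulin binder of regenerating axons, rose from 7.61, 4.74 and 5.74 CPM to 32.6, 14.4 and 27.9 CPM. Each degenerated library lay above every control library, with a log2 fold change of 2.05 (SE 0.39, unadjusted p = 0.00184, adjusted p = 0.273 in edgeR's quasi-likelihood test). Nos1, the calmodulin-dependent neuronal nitric oxide synthase, rose from 127, 70.0 and 99.5 CPM to 289, 191 and 332 CPM. It too did not overlap, with a log2 fold change of 1.45 (SE 0.30, unadjusted p = 0.00271, adjusted p = 0.291), and missed the call without control 3 or degenerated 1 (unadjusted p = 0.0117 and 0.0112).

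Calcium pumps, exchangers and store genes held 0 calls among 19 tested in edgeR's quasi-likelihood test, and 1 call each by DESeq2 and the exact test. An unadjusted p under 0.05 in the quasi-likelihood test was found for 3, beside 1367 of all 14118 tested genes. The median log2 fold change of the 19 was -0.40, with 12 negative and 7 positive values. Without overlap, 3 genes were lower and 0 higher, beside 7.37% and 10.3% of all tested genes.

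**Figure D4:**
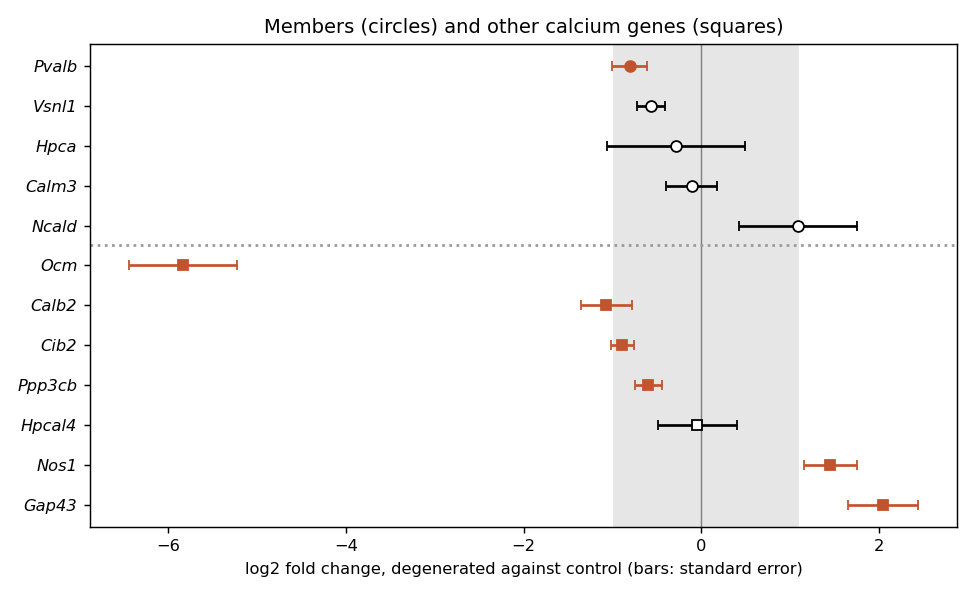
Log2 fold change of the degenerated against the control libraries with its standard error (edgeR, n = 3 each) for the 5 tested members (circles) and for Hpcal4 and the called calcium genes (squares), with called genes filled. The grey band spans the 5th to 95th percentile of all 14118 genes (-0.98 to 1.09), inside which Pvalb and Vsnl1 lay, while Ocm (-5.83), Calb2, Nos1 and Gap43 lay outside it.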

How the data were processed

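The libraries were made with an Illumina TruSeq kit from total RNA of cochlear modiolus and sequenced on Illumina instruments. The authors aligned reads with Hisat2 and evaluated expression with StringTie, whereas the submitters' processing notes name Bowtie 0.12.2, mm8 and mm10. The build, annotation and counting step behind the table were not given in the sources used here. Values in the 1 deposited table are whole-number counts of Ensembl transcripts, with no normalization. It lists 65535 transcripts, of which 65272 were matched to GENCODE M21 (GRCm38) and added up to 33676 genes. Between 0.1002% and 0.141% of the counts of a library were not matched. Of the 36 annotated transcripts of the members, 18 were listed. A missing row does not show that a transcript was not expressed. A change in the use of transcripts that are not analysed here can change the counted part of a gene.

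Groups came from the labels. Genes and transcripts were tested over the whole table by the robust quasi-likelihood F test of edgeR 4.0.16 (R 4.3.3), after filterByExpr and TMM normalization and without covariates, with Benjamini-Hochberg adjustment over all features tested. The standard error was the size of the log2 fold change over the square root of F. The common biological coefficient of variation was 0.488 for genes and 0.694 for transcripts, which limits the precision at 3 libraries a group. Transcript usage was tested with edgeR's diffSpliceDGE. All of these tests were also run on simulated data with known log2 fold changes, which were larger than those measured for the members. That run does not show how well changes of the members' size are found.

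The members and lists were chosen with earlier results of these data known. Genes named are the members and their transcripts, the other calcium genes called, Calb2, Calm2 and Hpcal4 (a gene of the rule is not reported here), the 2 genes of nearest profile to each tested member, and defining markers, and Slc17a7, Nefm, Nefh, Scn1a, Bglap, Bglap2, Ceacam16, C1qb and C1qc were named after their values were seen. Alternatives were DESeq2 1.42.0, the exact test of edgeR, normalization by RLE or upper quartiles, leaving the filter out or raising it to a mean count of 10, a replicate block, and the removal of 1 library at a time. The term for the library split and the neuron marker sum as reference, with and without its 4 highest genes, were added after the data were seen.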

Additional observations from a re-analysis of the deposited data

How the results depend on the processing

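The 5 tested members were refitted under 8 other settings and with each of the 6 libraries left out. Against 1 member called lower, 2 were called with DESeq2, with no filter on low counts and with the term for the library split, and 0 to 2 with a library left out. The 4 other calcium genes called lower numbered 2 with the term for the library split and 2 to 5 with a library left out, and the 2 called higher numbered 1 to 3 with a library left out. The 1 member transcript called lower numbered 0 with edgeR's exact test and with upper-quartile normalization, and 0 to 1 with a library left out. Same-numbered libraries had correlations of their deviations of 0.137, -0.083 and 0.064, so the numbers were not taken as pairs. With the replicate block, 0 members and 0 member transcripts and 2 other calcium genes were called lower, and Pvalb had a log2 fold change of -0.84 (unadjusted p = 0.0143 in edgeR's test). Directions reversed, with the cause not tested, with a library left out: log2 fold changes ranged from -0.25 to 0.15 for Calm3, from -0.82 to 0.18 for Hpca and from -0.31 to 0.22 for Hpcal4, and in transcripts from -0.45 to 0.058 for Calm3-203, from -0.17 to 1.32 for Hpca-202 and from -0.86 to 1.52 for Vsnl1-202. They also did for Calm3 per neuron marker sum (0.38) or per sum of the other 18 markers (0.034) and for Vsnl1-202 with the term for the library split (-1.04). The edgeR fits among these all had adjusted p-values above 0.05. Pvalb, Vsnl1 and their main transcripts Pvalb-201, Pvalb-202 and Vsnl1-201 kept a negative sign in all 14 refits, and Ncald a positive one. Members whose groups did not overlap numbered 3 with Calb1 included, and 3 to 4 with a library left out. The test of transcript usage passed 0 member transcripts with any library left out. Depth limits Calb1, with 2 to 7 counts per library, and Hpca, with 20 to 157.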
